A study of Mus musculus with 17 samples.

Results

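The genes described here encode proteins of the late granules and the cytosol of mouse neutrophils. They are Ltf, Camp, Ngp, Lcn2, Mmp8, Mmp9, Chil3, Anxa1, S100a8 and S100a9, and they were taken by name, with earlier results of these data known. Every probe set whose only gene symbol in the array platform's annotation was one of these names was used, which gave 12 of the 45101 probe sets, since Mmp9 and Anxa1 have 2 each. All 12 passed the filter on dim probe sets, and the 10 genes stand among 14235 genes tested.

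The study sorted bone marrow of femurs and tibias into cells with and without glycosylphosphatidylinositol (GPI), the lipid anchor that holds many proteins at the cell surface, and measured total RNA on 17 Affymetrix arrays. The first group was GPI- cells of Pig-a knock-out mice (3 arrays), set against GPI+ cells of the same kind of mice (3 arrays), both in batch 1. Batch 2 held 4 arrays of GPI- cells from C57BL/6 mice that received knock-out marrow, called KO-recipient cells below, 3 arrays of GPI+ cells from C57BL/6 mice that received wild-type marrow, called WT-recipient cells, and 4 arrays of GPI+ cells of untransplanted wild-type C57BL/6 mice. The knock-out donor marrow was kept with 10 nM aerolysin for 30 minutes, a toxin that kills cells carrying GPI anchors, and its recipients had received 9 Gy of total body irradiation. The sources used here do not give how the knock-out was made, the age of the mice, whether mice given wild-type marrow were irradiated, or how many host cells remained. Arrays of one group are titled as biological replicates, with no animal or pool named. The sort used antibodies to CD24, CD48 and Gr-1, and Gr-1 recognises a surface protein of neutrophils, so the sort itself draws on an antigen of the cells that make these granules.

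Neutrophils fill their granules in order as they mature in the marrow. Primary granules with myeloperoxidase and elastase are made first, in promyelocytes, secondary granules with lactoferrin, cathelicidin and lipocalin 2 follow in myelocytes and metamyelocytes, and tertiary granules with gelatinase are made last. In mice and humans the secondary granule genes depend on the transcription factor C/EBP epsilon, whose gene Cebpe was not analysed here. S100a8 and S100a9 form calprotectin, a very abundant protein of the neutrophil cytosol.

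The promoters of 4 of the genes are shown because 3 of them fell together in GPI- knock-out cells (Anxa1, Chil3 and Ltf) and Ngp did not pass the test there. Each is the 250 bases before the gene's start site from RefSeq, build GRCm38.p6, read 5′ to 3′ on the gene's own strand. Anxa1 lies at chr19:20390672-20390921 on the minus strand, Chil3 at chr3:106167565-106167814 on the minus strand, Ltf at chr9:111019042-111019291 on the plus strand and Ngp at chr9:110419558-110419807 on the plus strand. Capitals mark TTNNGNAA on either strand, a loose form of the sequence bound by C/EBP factors.
Anxa1: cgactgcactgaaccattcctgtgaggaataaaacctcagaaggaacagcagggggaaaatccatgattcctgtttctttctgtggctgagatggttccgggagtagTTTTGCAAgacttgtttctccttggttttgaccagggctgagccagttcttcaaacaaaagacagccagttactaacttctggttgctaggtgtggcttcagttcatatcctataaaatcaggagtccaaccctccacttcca
Chil3: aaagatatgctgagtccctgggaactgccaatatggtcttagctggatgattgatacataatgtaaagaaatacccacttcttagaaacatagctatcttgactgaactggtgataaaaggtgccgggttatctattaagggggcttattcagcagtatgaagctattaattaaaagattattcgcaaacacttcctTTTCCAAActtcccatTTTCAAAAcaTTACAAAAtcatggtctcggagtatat
Ltf: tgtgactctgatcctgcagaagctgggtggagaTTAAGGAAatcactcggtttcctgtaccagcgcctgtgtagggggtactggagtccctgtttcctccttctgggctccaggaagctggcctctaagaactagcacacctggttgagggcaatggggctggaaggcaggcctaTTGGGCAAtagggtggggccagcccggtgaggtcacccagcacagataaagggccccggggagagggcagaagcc
Ngp: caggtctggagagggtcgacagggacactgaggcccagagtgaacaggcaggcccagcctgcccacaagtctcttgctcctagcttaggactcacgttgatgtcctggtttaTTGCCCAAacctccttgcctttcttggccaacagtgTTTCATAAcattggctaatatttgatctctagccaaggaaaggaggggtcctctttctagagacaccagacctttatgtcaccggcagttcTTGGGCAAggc
The motif stood once in the Anxa1 window, at positions -143 to -136 from the start site, and 3 times in the Chil3 window, the farthest at position -53. In the Ltf window it lay at -217 to -210 and -75 to -68, and in the Ngp window at -138 to -131, -102 to -95 and -11 to -4. It was found in 8 of the 9 member promoters in the table, all but Camp, and in 36.8% of the 32851 promoter windows of the same length. Mmp9 has no entry in that table.

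Values below are log2 signals, made from the deposited log10 values and centred so that all arrays share one median. Array-wide measures were not the same in all groups, and they touch every comparison below. Piga, the targeted gene, acts at the first step of GPI synthesis, and its signal followed the labels: it was 1.74 ± 0.15 in GPI- and 3.78 ± 0.29 in GPI+ knock-out cells (SD, n = 3 each), and it was 0.51 ± 0.30 in KO-recipient cells (n = 4), set against 4.13 ± 0.11 in WT-recipient cells (n = 3) and 4.20 ± 0.10 in wild type (n = 4). Of the markers of other marrow cells, 9 of 9 measured T and NK cell genes rose in GPI- against GPI+ knock-out cells, with a summed linear signal of 550 to 609 against 72.1 to 76, and 6 of 8 B cell genes rose, with 534 to 701 against 284 to 301. Dendritic cell markers were higher for 6 of 6, with a sum of 274 to 334 in GPI- against 110 to 117 in GPI+ knock-out cells. Macrophage markers were lower for 8 of 8, with 27.7 to 31.4 against 58.5 to 59.6, and eosinophil markers for 5 of 5, with 22.3 to 41 against 163 to 164. Of 7 monocyte markers 3 were lower and 1 was higher, with 397 to 561 against 581 to 613, and 3 of 7 cell cycle genes were lower, with 606 to 901 against 944 to 963. None of 7 erythroid markers was called, with 655 to 1580 against 836 to 855. The sum over 9 neutrophil markers, 7 of them among the 10 genes, was 17700 to 19000 in GPI- against 21000 to 21700 in GPI+ knock-out cells. S100a8 and S100a9 are in this list and held ranks 1 and 2 on every knock-out array. Under the shared sorted values described below they add the same amount to each sum, so only the other markers can make it differ. No marker of these lists had a group mean at or below 0 on the deposited log10 scale. Some macrophage and eosinophil markers were dim in GPI- knock-out cells, with mean log2 signals of 0.24 for C1qa and 0.25 for Ccr3. The sizes of their differences are approximate. The hybridisation controls, RNAs added in equal amount to each array, stood at a mean log2 signal of 8.0 ± 0.34 in GPI- and 6.03 ± 0.25 in GPI+ knock-out cells, and the 3′ minus 5′ difference of Gapdh, a measure of RNA quality and labelling, was -0.16 ± 0.13 against -1.02 ± 0.02. Between 25 and 100 pM, the brighter of these controls, the deposited value rose by a slope of 1.32 ± 0.08 in GPI- and 1.61 ± 0.05 in GPI+ knock-out arrays, where a log10 intensity would give 1, so differences of bright genes can be overstated. The part of these measures in the results below was not tested. In bulk RNA, fewer cells of a type and less RNA per cell cannot be told apart.

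All 10 genes were among the 1000 brightest probe sets on every array, and 6 of them were among the brightest 100 on every array. S100a8 was the brightest probe set of all on 15 of 17 arrays and the second brightest on the other 2, both of them GPI- knock-out arrays, where S100a9 was the brightest. The deposited values of a batch share one set of sorted values, so the brightest probe set has the same value on every array of the batch. The step between the brightest and the second brightest is 0.42 on the log2 scale in batch 1 and 0.46 in batch 2. Differences of S100a8 and S100a9 at this ceiling are differences of rank, and S100a8 can show none between the groups of batch 2, where it held rank 1 on all 11 arrays.

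**Figure D1:**
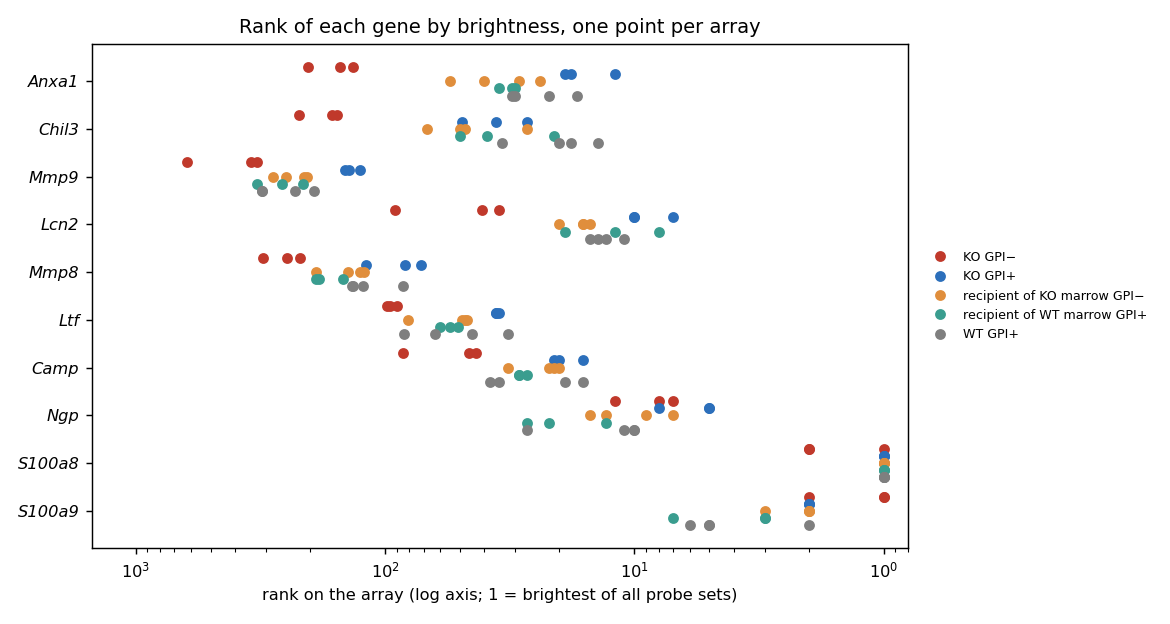
Rank of each gene's probe set by brightness on each array, on a log axis with the brightest probe set (rank 1) at the right; each point is an array, coloured by group, and the groups of a gene run down the page in the order of the legend. In GPI- knock-out cells Anxa1 ranked 135 to 204 and Chil3 156 to 221, against 12 to 19 and 27 to 49 in GPI+ knock-out cells, while S100a8 stayed at rank 1 or 2.

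In knock-out marrow, 7 of the 10 genes were lower in GPI- than in GPI+ cells by limma's test with Benjamini-Hochberg adjustment over all 14235 genes, and none was higher. The 3 that missed the threshold were Ngp, S100a8 and S100a9. Over all genes, 14.8% were called lower and 14.8% higher. The median difference of the 10 genes was -0.94 on the log2 scale, against -0.01 over all genes tested. The groups did not overlap for the same 7 genes, all with the GPI- cells below, which held for 21.2% of all genes. For each of these 7 an exact two-sided permutation test gave p = 0.1, the smallest that 3 against 3 arrays allow.

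**Figure D2:**
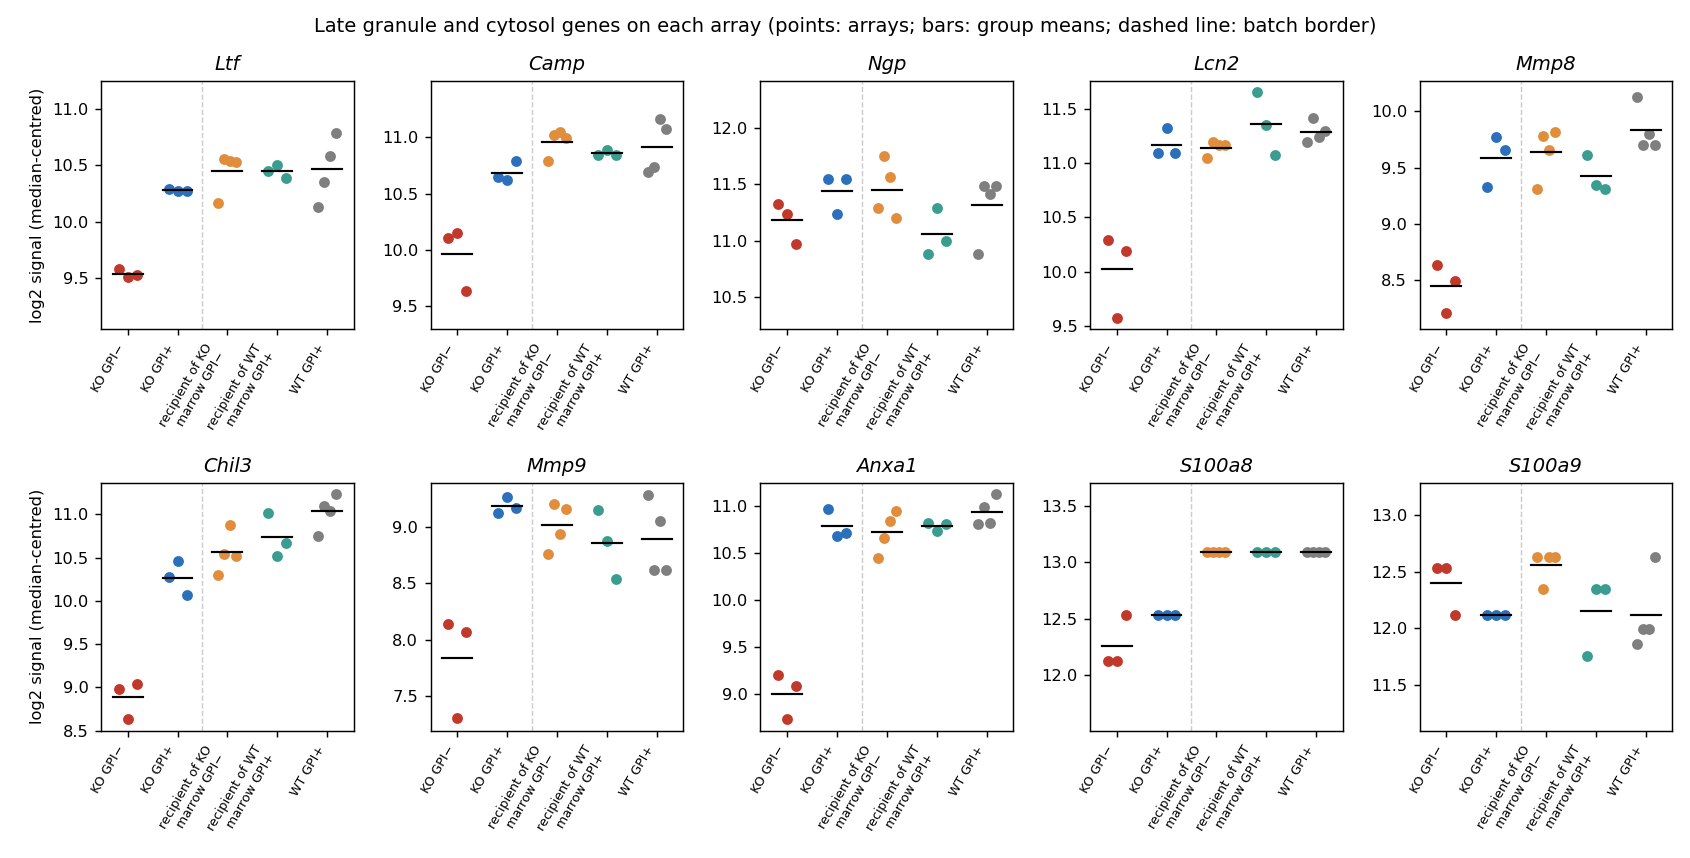
Log2 signal of each gene (brightest probe set) on each of the 17 arrays; points are arrays, bars are group means and the dashed line parts batch 1 from batch 2. In the left pair of groups, GPI- knock-out cells lie below GPI+ knock-out cells without overlap for Ltf, Camp, Lcn2, Mmp8, Mmp9, Chil3 and Anxa1, and the 3 groups of batch 2 overlap for most genes.

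Among secondary granule proteins, Ltf encodes lactoferrin, which binds iron and so withholds it from bacteria. Its log2 signal was 9.58, 9.51 and 9.53 in GPI- knock-out cells, against 10.30, 10.28 and 10.28 in GPI+ knock-out cells. The 3 arrays of each group lay close together and the groups were far apart, with a difference of -0.74 ± 0.14 (SE), 1.67-fold lower, and an adjusted p of 0.000291 by limma. Camp encodes cathelicidin, an antimicrobial peptide stored as a precursor. It stood at 10.11, 10.16 and 9.63 in GPI- and at 10.65, 10.62 and 10.79 in GPI+ knock-out cells, a difference of -0.72 ± 0.14 (limma adjusted p = 0.00055). GPI- replicate 3 was the lowest for Camp, and all 3 were below every GPI+ array.

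Lcn2 encodes lipocalin 2, which captures the iron carriers of bacteria. Its log2 signal was 10.30, 9.57 and 10.19 in GPI- against 11.09, 11.33 and 11.09 in GPI+ knock-out cells. It fell by 1.15 on the log2 scale (SE 0.16, limma adjusted p = 1.12e-05), with GPI- replicate 2 the lowest of all 17 arrays. Ngp, neutrophilic granule protein, is a secretory protein of mouse neutrophil granules related to cystatins. It stood at 11.33, 11.24 and 10.97 in GPI- against 11.55, 11.24 and 11.55 in GPI+ knock-out cells. These groups overlap, and the difference of -0.26 ± 0.17 did not pass (limma adjusted p = 0.271, 95% interval -0.62 to 0.09). Ngp ranked between 5 and 27 on every array, near the ceiling described above. Lcn2 was also near it outside GPI- knock-out cells, at ranks 7 to 20. With control probe sets taken out and the normalization repeated, an alternative chosen after seeing the data, the Ngp difference turned to 0.08.

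Both matrix metalloproteinases fell. Mmp8 encodes neutrophil collagenase, a secondary granule enzyme, and its log2 signal was 8.64, 8.21 and 8.49 in GPI- against 9.33, 9.77 and 9.65 in GPI+ knock-out cells, a difference of -1.14 ± 0.16 (limma adjusted p = 1.1e-05). Mmp9 encodes gelatinase B, the enzyme that defines tertiary granules. It stood at 8.14, 7.30 and 8.07 in GPI- against 9.12, 9.27 and 9.17 in GPI+ knock-out cells. GPI- replicate 2 was far below the other two GPI- arrays, and no GPI- array reached the GPI+ range. The difference was -1.35 ± 0.21 (limma adjusted p = 3.52e-05), and without that array it was -1.08. The other Mmp9 probe set gave 8.29, 7.54 and 8.01 in GPI- against 9.38, 9.41 and 9.38 in GPI+ knock-out cells. In a fit over all 32393 probe sets kept, it differed by -1.45 ± 0.18 (limma adjusted p = 4.15e-06), in the same direction as the first.

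Chil3, a chitinase-like secreted protein of mouse myeloid cells also called Ym1, had a log2 signal of 8.98, 8.63 and 9.04 in GPI- against 10.28, 10.46 and 10.06 in GPI+ knock-out cells. It was 2.61-fold lower, a difference of -1.38 ± 0.16 (limma adjusted p = 1.74e-06), and the groups lay more than 1 log2 unit apart. Anxa1 encodes annexin A1, a calcium-dependent phospholipid-binding protein held in neutrophil granules and cytosol and known to limit inflammation. Its log2 signal was 9.20, 8.73 and 9.08 in GPI- against 10.97, 10.68 and 10.72 in GPI+ knock-out cells. This was the widest gap of the 10 genes, 3.46-fold lower, at -1.79 ± 0.14 (limma adjusted p = 6.42e-09).

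A second Anxa1 probe set was dim, ranking between 13390 and 23512, where signals flatten. It gave 1.36, 1.43 and 1.48 in GPI- against 2.39, 2.30 and 2.58 in GPI+ knock-out cells, a difference of -1.0 ± 0.13 (limma adjusted p = 4.47e-06 over probe sets).

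The calprotectin genes did not pass in the fit over genes. S100a8 stood at 12.12, 12.12 and 12.54 in GPI- and at 12.54 on all 3 arrays of GPI+ knock-out cells. S100a9 stood at 12.54, 12.54 and 12.12 in GPI- and at 12.12 on all 3 arrays of GPI+ knock-out cells. On 2 of the 3 GPI- arrays the 2 genes had changed places at ranks 1 and 2. The difference was -0.28 ± 0.11 for S100a8 (limma adjusted p = 0.0619) and 0.28 ± 0.18 for S100a9 (limma adjusted p = 0.277), and the equal sizes follow from the shared step between the ranks. The S100a8 probe set is of a type whose probes can match related transcripts. S100a8 passed under 3 of 26 alternatives, with adjusted p-values of 0.0408 with cyclic loess normalization, 0.0492 with probe sets averaged per gene and 0.00245 without GPI- replicate 3. It also passed in the fit over all probe sets kept (adjusted p = 0.0458).

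Within the GPI- knock-out arrays, replicate 2 was the lowest for Lcn2, Mmp8, Mmp9, Chil3 and Anxa1, and by a small margin for Ltf. It also had the highest mean log2 signal of 7 erythroid markers, 6.82, where the other GPI- arrays had 5.57 and 6.04 and the GPI+ knock-out arrays 6.15 to 6.18. Leaving it out changed none of the 7 calls. The GPI+ knock-out arrays agreed more closely than those of any other group, with a median SD over the brighter probe sets of 0.064, against 0.181 in GPI- knock-out cells and 0.139 to 0.173 in batch 2. The titles call them biological replicates, but no animal or pool is named, and were they repeats of one sample, the p-values of the knock-out comparison would be too small. With these 3 arrays averaged into 1 sample, whose spread is then taken from the other groups, the 7 genes were still called, with adjusted p-values of 1.2e-05 for Anxa1 to 0.0337 for Camp, and over all genes 817 were called lower where 2103 had been.

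**Figure D3:**
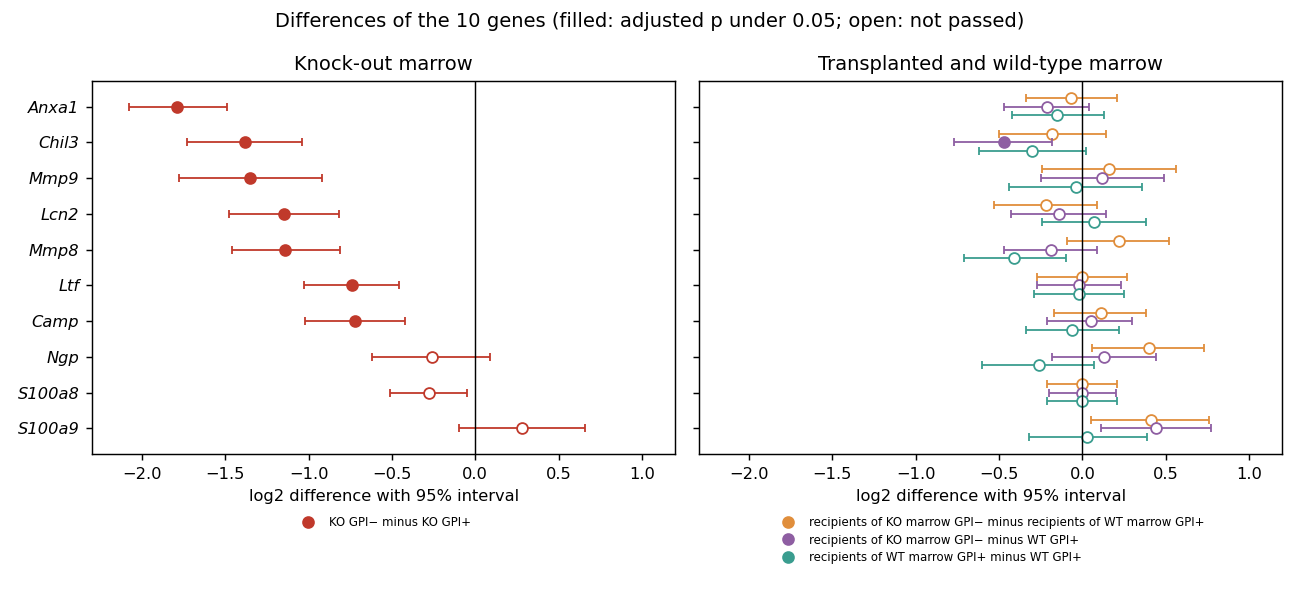
Log2 difference of each gene with its 95% interval from limma, for GPI- minus GPI+ knock-out cells (left) and for the 3 comparisons of batch 2 (right); filled points passed an adjusted p of 0.05 and open points did not. In the left panel the 7 filled points lie left of 0, from -0.72 for Camp to -1.79 for Anxa1, and in the right panel Chil3 in KO-recipient cells against wild type is the only filled point.

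After transplantation, none of the 10 genes passed the test between KO-recipient and WT-recipient cells, although Piga fell by 3.62 on the log2 scale there. Over all genes 7.4% were called in either direction by limma. At an unadjusted p under 0.05, 2 of the 10 genes passed, Ngp and S100a9, as did 19.7% of all genes. The median difference of the 10 genes was 0.05, against -0.01 over all genes, and the groups overlapped for all 10. Over all genes, 7.5% lay wholly below and 8% wholly above. The remaining 8 genes differed by -0.22 to 0.22, with SEs of 0.10 to 0.19.

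Anxa1, the most changed of the genes in knock-out marrow, had log2 signals of 10.45, 10.66, 10.84 and 10.95 in KO-recipient cells, against 10.83, 10.74 and 10.81 in WT-recipient cells. The range of the first group encloses that of the second, and the difference was -0.07 (95% interval -0.34 to 0.21, limma adjusted p = 0.858). Ltf stood at 10.16, 10.56, 10.54 and 10.53 in KO-recipient cells and at 10.45, 10.50 and 10.39 in WT-recipient cells. Its means were equal at 10.45, with an interval of the difference from -0.27 to 0.27.

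Ngp was 11.29, 11.75, 11.57 and 11.20 in KO-recipient cells, against 10.88, 11.29 and 10.99 in WT-recipient cells. The difference of 0.40 ± 0.16 did not pass (limma adjusted p = 0.16). S100a9 was 12.63, 12.35, 12.63 and 12.63 in KO-recipient cells, against 11.75, 12.35 and 12.35 in WT-recipient cells, a difference of 0.41 ± 0.17 (limma adjusted p = 0.173). These values are ranks 2 and 3 in KO-recipient cells and 3 to 7 in WT-recipient cells. S100a8 was 13.09 on every array of batch 2, the ceiling of that batch. T and NK cell markers moved here too, with 7 of 9 higher and a summed signal of 94.5 to 210 in KO-recipient cells, against 48.2 to 59.5 in WT-recipient cells, and 7 of 7 monocyte markers rose, with a summed signal of 555 to 876 in KO-recipient cells against 332 to 461 in WT-recipient cells. Dendritic cell markers were higher for 5 of 6, with 177 to 210 in KO-recipient cells against 86.2 to 106 in WT-recipient cells. Lower in KO-recipient than in WT-recipient cells were 6 of 7 erythroid markers, with 132 to 428 against 348 to 494, 7 of 7 cell cycle genes, with 551 to 647 against 949 to 1040, 6 of 8 macrophage markers, with 23.4 to 31.4 against 43.2 to 48.9, and 1 of 5 eosinophil markers. None of 8 B cell markers was called.

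In the remaining 5 genes the recipient groups also overlapped. Camp was 10.79, 11.02, 11.05 and 10.99 in KO-recipient cells, against 10.84, 10.88 and 10.84 in WT-recipient cells, a difference of 0.11 ± 0.13 (limma adjusted p = 0.752). Lcn2 was 11.05, 11.20, 11.17 and 11.17 in KO-recipient cells, against 11.65, 11.35 and 11.07 in WT-recipient cells, a difference of -0.22 ± 0.15 (limma adjusted p = 0.476). For Lcn2 the 3 WT-recipient arrays were spread over a wider range than the 4 KO-recipient arrays.

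Mmp8 was 9.31, 9.78, 9.66 and 9.82 in KO-recipient cells, against 9.62, 9.35 and 9.31 in WT-recipient cells, a difference of 0.22 ± 0.15 (limma adjusted p = 0.463). Mmp9 was 8.76, 9.20, 8.94 and 9.16 in KO-recipient cells, against 9.15, 8.88 and 8.54 in WT-recipient cells, a difference of 0.16 ± 0.19 (limma adjusted p = 0.736). Its other probe set differed by 0.27 ± 0.17, and the dim Anxa1 probe set by -0.12 ± 0.12, neither passing over all probe sets kept (limma adjusted p = 0.511 and 0.734). Chil3 was 10.30, 10.54, 10.88 and 10.52 in KO-recipient cells, against 11.02, 10.52 and 10.68 in WT-recipient cells, a difference of -0.18 ± 0.15 (limma adjusted p = 0.603). The groups overlap for all 3 genes, and the 95% intervals of the differences run from -0.50 at the lowest, for Chil3, to 0.56 at the highest, for Mmp9.

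The knock-out difference and the recipient difference were compared directly, as a contrast of contrasts in the same fit, since they share no array. The knock-out difference was the lower of them for 7 of the 10 genes, the 7 that fell in knock-out marrow, where 9.97% of all genes were called lower by limma. The gap was -1.72 ± 0.19 for Anxa1 (adjusted p = 1.6e-05), -1.51 ± 0.28 for Mmp9 (0.00078), -1.35 ± 0.21 for Mmp8 (0.000196) and -1.21 ± 0.23 for Chil3 (0.000791). It was -0.94 ± 0.22 for Lcn2 (adjusted p = 0.00454), -0.83 ± 0.19 for Camp (0.00499) and -0.74 ± 0.19 for Ltf (0.0081). With the 3 GPI+ knock-out arrays averaged into 1 sample, again taken to vary like the other groups, Anxa1, Mmp9, Mmp8 and Chil3 passed, and Lcn2, Camp and Ltf did not, with adjusted p-values of 0.0529, 0.0607 and 0.0866. Ngp missed the threshold at -0.66 ± 0.23 (adjusted p = 0.0538) and passed under 9 of 26 alternatives. Of these, 6 left out a single array: replicate 1 of GPI- or replicate 2 of GPI+ knock-out cells, replicate 1 or 4 of KO-recipient cells, replicate 2 of WT-recipient cells or replicate 1 of wild type (adjusted p 0.0254 to 0.0448). S100a8 differed by -0.28 ± 0.15 (adjusted p = 0.215) and passed without GPI- knock-out replicate 3 (adjusted p = 0.0228). Piga, outside the 10 genes, fell less in knock-out marrow than between recipients, with a gap of 1.58 ± 0.22 (limma adjusted p = 6.5e-05). The knock-out and recipient differences also come from different batches. Their GPI+ cells differ, being of knock-out mice in the former and from recipients of wild-type marrow in the latter. Aerolysin is given only for the graft of the KO-recipient cells. The parts of batch, comparison cells, aerolysin and transplantation cannot be told apart.

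Against untransplanted wild type, 1 of the 10 genes passed in KO-recipient cells, where 5.55% of all genes were called lower and 6.85% higher by limma. It was Chil3, at 10.30, 10.54, 10.88 and 10.52 in KO-recipient cells against 10.76, 11.10, 11.05 and 11.24 in wild type. One recipient array lay above the lowest wild-type array, and the difference was -0.47 ± 0.14 (limma adjusted p = 0.0313, exact two-sided permutation p = 0.05714). It did not pass when KO-recipient replicate 1, 2 or 4 was left out (limma adjusted p = 0.0988, 0.0666 and 0.0753), or wild-type replicate 2, 3 or 4 (0.0769, 0.0692 and 0.108). S100a9 stood at 12.63, 12.35, 12.63 and 12.63 in those recipients against 11.86, 11.99, 11.99 and 12.63 in wild type. Its difference of 0.44 ± 0.16 missed the threshold (limma adjusted p = 0.0736), and without wild-type replicate 4 it was 0.61 with an adjusted p of 0.00906. It also passed without replicate 1 of the WT-recipient cells, which enters through the shared spread (adjusted p = 0.0453). The other 8 genes lay between -0.21 and 0.13. At the ends of that range, Anxa1 was 10.45, 10.66, 10.84 and 10.95 in KO-recipient cells against 10.81, 10.99, 10.83 and 11.13 in wild type, and Ngp was 11.29, 11.75, 11.57 and 11.20 in KO-recipient cells against 10.88, 11.49, 11.42 and 11.49 in wild type. The groups overlapped for both. Markers of other cells moved in this comparison as well. Lower in KO-recipient cells than in wild type were 7 of 7 erythroid markers, with a summed signal of 132 to 428 against 609 to 1030, 7 of 8 macrophage markers, with 23.4 to 31.4 against 52.5 to 65.3, 7 of 7 cell cycle genes, with 551 to 647 against 870 to 1000, 2 of 8 B cell markers and 1 of 5 eosinophil markers. Higher in KO-recipient cells were 8 of 9 T and NK cell markers, with 94.5 to 210 against 48.5 to 64.8, 7 of 7 monocyte markers, with 555 to 876 against 355 to 471, and 5 of 6 dendritic cell markers, with 177 to 210 against 101 to 107.

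Comparing WT-recipient cells with wild type asks what transplantation changes in GPI+ cells. It gave no call among the 10 genes, where 0.843% of all genes were called in either direction by limma. At an unadjusted p under 0.05, 1 gene passed, where 14.1% of all genes did. It was Mmp8, at 9.62, 9.35 and 9.31 in WT-recipient cells against 10.13, 9.70, 9.80 and 9.71 in wild type. Every recipient array was below every wild-type array, which held for 5.86% of all genes, and the difference was -0.41 ± 0.15 (limma adjusted p = 0.198, exact two-sided permutation p = 0.02857). Chil3 differed by -0.30 ± 0.15 here (limma adjusted p = 0.4). Of the markers of other cells, 1 of 8 macrophage markers was lower, with a summed signal of 43.2 to 48.9 in WT-recipient cells against 52.5 to 65.3 in wild type. Dendritic cell markers were lower for 1 of 6, with 86.2 to 106 against 101 to 107. None of 7 erythroid markers was called, although their sum was 348 to 494 in WT-recipient cells against 609 to 1030 in wild type. This comparison, the one before it and the recipient comparison share arrays, so their values are not independent of each other.

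Other granulocyte genes fell with the 7 in knock-out marrow. Of 9 genes tested in a primary granule list, 8 were lower in GPI- than GPI+ knock-out cells, with a median of -1.39. The list also counts Ms4a3, Igsf6 and Serpinb1a, which are not primary granule proteins. Elane, neutrophil elastase, differed by -1.90 ± 0.15 (limma adjusted p = 5.58e-09), and Fcnb, a ficolin of granulocytes, by -2.50 ± 0.22 (3.07e-08). Of 21 other late granule and secretory genes, 20 were lower, with a median of -1.35. Ceacam1, an adhesion receptor, had a mean of 4.89 ± 0.15 in GPI- against 6.48 ± 0.12 in GPI+ knock-out cells and differed by -1.60 ± 0.13 (limma adjusted p = 6.42e-09). Lyz2, lysozyme, was the one that did not pass, at 10.18 ± 0.04 against 10.31 ± 0.27 (adjusted p = 0.582). All 17 oxidase, adhesion and receptor genes tested were lower, with a median of -1.11, and 10 of them were called with the GPI+ knock-out arrays averaged. The 17 also count the cytokine gene Il1b and Mxd1, which belong to none of these kinds. In this list Ncf4, a subunit of the neutrophil oxidase, differed by -1.29 ± 0.13 (limma adjusted p = 1.71e-07), and Fpr2, a receptor for formylated peptides, by -1.18 ± 0.12 (2.18e-07). The share of all genes called lower was 14.8%, as above. These lists, like the 10 genes, were chosen with earlier results of these data known. Their counts are descriptions and do not test the pattern.

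In KO-recipient cells against WT-recipient cells, 6 of 9 genes of the primary granule list were lower and 1 was higher, with a median of -0.56. Elane differed by -1.06 ± 0.14 (limma adjusted p = 4.57e-05), Fcnb by -1.56 ± 0.21 (5.21e-05), and Ctsc, the protease that activates granule serine proteases, was higher by 1.12 ± 0.17 (0.000294). On the same arrays, 3 of 21 other late granule genes were lower and none was higher. Olfm4, a secondary granule protein held by only some neutrophils, stood at 6.43 ± 0.62 against 7.44 ± 0.50 (limma adjusted p = 0.012), although its groups overlapped. Of the 17 genes of the oxidase, adhesion and receptor list, 1 was higher, the C-type lectin receptor Clec4e, by 1.22 ± 0.27 (limma adjusted p = 0.00667). Against this, 3.45% of all genes were called lower and 3.95% higher.

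**Figure D4:**
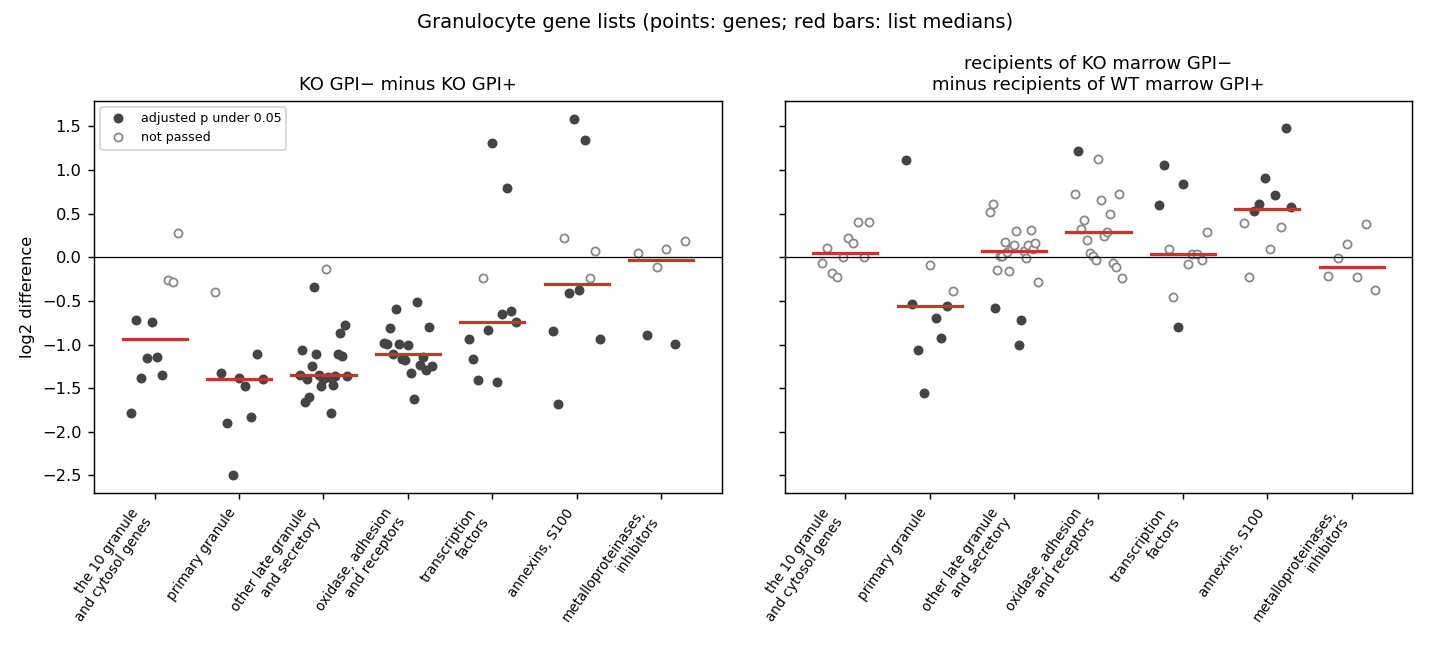
Log2 differences of single genes (points) with the median of each list (red bars) for GPI- minus GPI+ knock-out cells (left) and for KO-recipient cells minus WT-recipient cells (right); filled points passed an adjusted p of 0.05. In the left panel the medians of the 3 lists next to the 10 genes are -1.39, -1.35 and -1.11, and in the right panel the primary granule median is -0.56 while that of the other late granule genes is 0.07.

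Relatives of Anxa1 and calprotectin moved in both directions. In GPI- against GPI+ knock-out cells, 5 of 10 other annexin and S100 genes were lower and 2 were higher, and 3 were lower with the GPI+ knock-out arrays averaged. Anxa3, an annexin of neutrophil granules, differed by -1.68 ± 0.12 (limma adjusted p = 1.23e-09), whereas Anxa6 differed by 1.59 ± 0.12 (4.24e-09) and S100a10 by 1.35 ± 0.20 (2.98e-05). In KO-recipient cells against WT-recipient cells, 6 of these 10 rose and none fell. S100a4 stood at 7.42 ± 0.30 against 5.94 ± 0.17, a difference of 1.48 ± 0.15 (limma adjusted p = 1.58e-06). Of 6 other matrix metalloproteinases and their inhibitors, Timp2 (-0.99 ± 0.15, limma adjusted p = 2.65e-05) and Mmp19 (-0.89 ± 0.20, 0.00203) were lower in GPI- than GPI+ knock-out cells and none passed between the recipients. Mmp19 was near the floor, with a mean of 0.20 against 1.09, so its size is approximate, and it did not pass with the GPI+ knock-out arrays averaged.

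The genes whose batch-centred signals were most like the mean of the 10 over the 17 arrays were Ppp3ca, a catalytic subunit of calcineurin (Pearson r = 0.975), Mid1ip1 (0.972), Ceacam1 (0.959), Ugdh, the enzyme that makes glucuronic acid precursors (0.955), and the tyrosine kinase gene Bmx (0.949). Kmt5a, Glrx, Igsf6, Ifitm6 and Nadk followed, with r from 0.943 to 0.947. These values are descriptions, with no test, since the knock-out groups lie apart from each other and arrays of a group share genotype, sort and batch. Ppp3ca differed by -0.92 in GPI- against GPI+ knock-out cells and by 0.03, 0.02 and -0.01 in the other comparisons, and Ceacam1 by -1.60, 0.01, -0.12 and -0.12. Within batch 2 alone, over 11 arrays, the 28 pairs of the 8 members other than S100a8 and S100a9 had a median r of 0.18, with a range from -0.21 to 0.85.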

How the data were processed

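Values were the authors' deposited table for 17 arrays. No source used here names its scale, and the deposited values were read as log10 because of the hybridisation controls. Over all of these controls the values rose with log10 concentration by group mean slopes of 0.934 to 1.18, where a log10 intensity would give 1. Within a batch the sorted deposited log10 values are identical on all arrays, so they were quantile-normalized per batch before deposit. The submitters' processing notes name GCOS 12 but not its role. The probe summary is not stated in the sources used here. The values were divided by log10 of 2 and centred on a common median. Control probe sets (64) were left out, and a probe set had to reach the 40th percentile of the array on 3 arrays or more. By the platform's annotation, 34945 probe sets have 1 symbol, 932 several and 9160 none here. RefSeq GRCm38.p6 matched 34741 by gene identifier. The brightest kept probe set stood for a gene, and a second fit took every probe set.

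One limma 3.58.1 fit in R 4.3.3 (lmFit, eBayes with trend) over 17 arrays had 5 group means, leaving 12 residual degrees of freedom. Contrasts lay within batches. Benjamini-Hochberg adjustment ran over 14235 genes, with a threshold of 0.05. The median SE over genes was 0.154 for the knock-out contrast, 0.144 for the recipients and 0.211 for their difference. The number of arrays limits the precision. P-values rest on the spread among these arrays alone. The script was tested on simulated data. Members and lists were chosen with earlier results of these data known. Named genes are the members, Piga, up to 3 genes per list and comparison with the lowest adjusted p, and the 10 most like the members. Ctsc and Lyz2, outside that rule, were named after their values were seen. The Cebpe and Ly6g genes were not analysed here. Alternatives changed the normalization, filter, probe set choice, variance model, arrays in the fit, replicate block and replicates.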

Additional observations from a re-analysis of the deposited data

Results flagged for a closer look

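For 7 genes the difference between GPI- and GPI+ cells was not the same in knock-out marrow as between the recipients, by limma's test of the difference of differences with adjustment over all genes. On the log2 scale the knock-out difference minus the recipient difference was -0.74 for Ltf, -0.83 for Camp, -0.94 for Lcn2, -1.35 for Mmp8, -1.51 for Mmp9, -1.21 for Chil3 and -1.72 for Anxa1. As above, the knock-out and recipient differences come from different batches and are taken against different GPI+ cells.

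Single arrays stood apart from the rest of their group in 5 of the 22 sets of 4 arrays checked, by the gap to the nearest array against the group's range, which chance gives in about 1 of 20. In KO-recipient cells, Ltf was low on replicate 1, at 10.16, and S100a9 was low on replicate 2, at 12.35. In wild type, Ngp was low on replicate 1, at 10.88, the dimmer Mmp9 probe set was low on replicate 2, at 8.25, and S100a9 was high on replicate 4, at 12.63. The values of S100a9 are steps between ranks at the top of the scale.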

How the results depend on the processing

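All 7 calls in knock-out marrow held under each of 26 alternatives, with differences from -0.71 to -0.77 for Ltf and from -1.39 to -1.89 for Anxa1. Leaving out 1 array at a time gave 7 to 8 members called in the knock-out comparison, 0 to 0 between recipients, 0 to 2 against wild type, 0 to 0 for WT-recipient cells, and 7 to 8 for the difference of differences. With the GPI+ knock-out arrays averaged, that difference was called for 4 members, and 836 genes were called higher and 817 lower in the knock-out comparison, where 2101 and 2103 were called with all arrays. Cyclic loess moved that split to 2422 higher and 1833 lower. Replicate numbers did not pair the samples: same-numbered arrays correlated by -0.038 to -0.017 in batch 1 and by -0.18 to 0.098 in batch 2, and 1 of 17 arrays correlated best with its own number. With the replicate block, calls in the knock-out comparison came to 1965 higher and 1976 lower, and 0 members were called against wild type (Chil3 at an adjusted p of 0.069). Signs of values near 0 turned. The replicate block gave -0.07 for Ltf between recipients and 0.05 for Ltf in WT-recipient cells against wild type. Repeating the normalization without controls, an alternative chosen after seeing the data, gave 0.08 for Ngp in knock-out marrow and -0.05 for S100a9 in WT-recipient cells. Leaving out 1 array gave between recipients -0.04 to 0.10 for Ltf and -0.14 to 0.03 for Anxa1; for KO-recipient cells against wild type -0.13 to 0.09 for Ltf, -0.03 to 0.13 for Camp and -0.01 to 0.22 for Ngp; for WT-recipient cells against wild type -0.13 to 0.09 for Ltf, -0.13 to 0.02 for Camp, -0.07 to 0.22 for Lcn2, -0.19 to 0.12 for Mmp9 and -0.07 to 0.23 for S100a9; and for the difference of differences -0.23 to 0.07 for S100a9. None of these passed the test with all arrays, and the cause was not tested.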

Other observations

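Transcription factors of granulocyte maturation moved in both directions. In GPI- against GPI+ knock-out cells, 8 of 11 were lower and 2 were higher by limma's test, where 14.8% of all genes were lower and 14.8% higher, and with the GPI+ knock-out arrays averaged 5 of 11 were lower. Klf5 differed by -1.43 ± 0.14 (adjusted p = 1.31e-07) and Cebpd by -1.41 ± 0.19 (7.11e-06), whereas Irf8, which favours monocytes over granulocytes, differed by 1.31 ± 0.13 (2.15e-07). Irf8 is also in the list of dendritic cell markers, of which 6 of 6 were higher there. Of 7 monocyte markers there, 3 were lower and 1 was higher. In KO-recipient cells against WT-recipient cells, 3 of 11 were higher and 1 was lower, where 3.95% of all genes were higher and 3.45% lower. Irf8 was higher by 0.84 ± 0.12 (limma adjusted p = 0.000168) and Cebpb, a C/EBP factor of emergency granulopoiesis, by 1.06 ± 0.27 (0.0159), while Gfi1, a repressor needed for neutrophil formation, stood at 3.15 ± 0.14 against 3.95 ± 0.31 and differed by -0.80 ± 0.14 (0.000641).

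Against wild type, KO-recipient cells had 3 of the 17 genes of the oxidase, adhesion and receptor list higher and none lower. Over all genes 6.85% were higher and 5.55% lower. Il1b, the inflammatory cytokine, stood at 6.77 ± 0.29 against 5.03 ± 0.37, a difference of 1.74 ± 0.32 (limma adjusted p = 0.000939), Clec4e differed by 1.38 ± 0.25 (0.000809) and Trem1 by 0.88 ± 0.22 (0.0111). In WT-recipient cells against wild type, 3 of 9 genes of the primary granule list were higher. They were Ctsg by 0.69 ± 0.11 (limma adjusted p = 0.00787), Prtn3 by 0.69 ± 0.12 (0.01) and Ms4a3 by 0.63 ± 0.14 (0.0312). None of the 21 other late granule genes passed, with 6 at an unadjusted p under 0.05. Over all genes 0.843% were called in either direction and 14.1% had an unadjusted p under 0.05.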
